A study of Danio rerio with 8 samples.

Results

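The genes described here are the granins, the acidic proteins that fill the cores of dense-core secretory vesicles, and the enzymes that cut hormone and neuropeptide precursors inside those vesicles. The 8 genes are *scg2a*, *scg2b*, *scg3*, *chga*, *scg5*, *pcsk1*, *pcsk2* and *cpe*. They were chosen by their function with the *mtmr5*-KO over WT fold changes of these same libraries in view. Of these, 7 have a row of that symbol among the 32520 rows of the raw count table. *scg2a* was matched to no row and is not analysed here. *scg5* names 2 rows, which the files do not tell apart by identifier, so that both are given. All 8 rows were among the 19412 that reached 10 counts in 3 or more libraries, which were tested. Because the genes were put together with this contrast in view, their differences are given as values, log2 fold changes with standard errors and calls, without p-values, and are not independent evidence.

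RNA of pooled heads of AB strain zebrafish larvae at 7 days post-fertilization (dpf) was sequenced from 4 wild-type (WT) and 4 *mtmr5*-knockout (*mtmr5*-KO) pools. Per the methods of the study, the knockout larvae are homozygous for a CRISPR/Cas9 deletion that removes the whole *mtmr5* (*sbf1*) gene, the WT larvae are siblings without it, and 11 to 17 heads were dissected per genotype. The larvae of both groups were fin clipped for genotyping before the heads were taken. The heads hold eyes, skin, muscle and cartilage beside the brain, and the replicates came from different breeding pairs.

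Dense-core vesicles bud from the trans-Golgi network of neurons and endocrine cells and release peptides upon calcium entry. Granins condense in the acidic lumen of the forming vesicle and help to gather its cargo, and several are themselves cut into peptides. Prohormone convertases cleave precursors after pairs of basic residues, and carboxypeptidase E then trims the exposed basic residues. In the brain, these proteins serve the peptidergic neurons, and in the pituitary they serve the hormone cells.

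The targeted gene, *sbf1*, was at 1894 to 2545 raw counts per WT library and at 26 to 63 per *mtmr5*-KO library. WT libraries held 20514932 to 22761120 counts in total and *mtmr5*-KO libraries 16104181 to 19170140. The mitochondrially encoded genes held 6.43% to 8.82% of the counts in WT and 18.6% to 26.6% in *mtmr5*-KO, and the most abundant row held 5.63% to 10.2% and 19.6% to 30.7%. Values below are TMM-scaled counts, which take most genes as unchanged and so express each gene relative to the bulk of the genes. The part of these shares in the results was not tested.

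The granins and their processing enzymes did not all move in the same direction. On this scale, 2 of the 8 rows were lower in *mtmr5*-KO (*scg2b* and *cpe*), 2 were higher (*chga* and *pcsk1*) and 4 were not called, at an adjusted p under 0.05 in the quasi-likelihood test of edgeR over all genes. By the same rule 7.51% of all tested genes were lower and 13.5% higher, or 21% in either direction. The median log2 fold change of the 8 rows was -0.04, beside -0.02 over all tested genes. Their summed TMM-scaled counts, of which *cpe* was the largest part, were lower in *mtmr5*-KO. They ranged from 13165 to 15327 for WT and from 8072 to 11603 for *mtmr5*-KO, without overlap. The genotypes did not overlap in the same 4 called rows, a pattern shown by 24.9% of all tested genes (13.9% with *mtmr5*-KO above WT and 11% below). In heads sequenced in bulk, fewer peptidergic cells and less RNA of a gene per cell cannot be told apart.

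Among the granins, *scg2b*, a secretogranin II gene whose product is cut into the peptide secretoneurin, had the lowest fold change of the 8 rows. It had 2492, 2627, 3062 and 2324 TMM-scaled counts in WT replicates 1 to 4 and 1052, 1492, 1294 and 1013 in *mtmr5*-KO replicates 1 to 4. Every *mtmr5*-KO library lay below every WT library, and the highest *mtmr5*-KO value was well under the lowest WT value. The mean fell from 2626 ± 316 to 1213 ± 224 (SD, 4 libraries per genotype), a log2 fold change of -1.11 with a standard error of 0.16, or 2.16-fold lower. *scg2b* was also the only one of the 8 rows past the thresholds of the study, an adjusted p under 0.01 with an absolute log2 fold change over 1, which 1.08% of all tested genes passed as lower and 7.13% as higher. It was called lower with each library left out in turn, with log2 fold changes from -1.25 to -1.03.

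*chga*, chromogranin A, a granin that promotes the formation of secretory granules, moved the opposite way on the TMM scale. WT replicates 1 to 4 were at 561, 655, 721 and 758 TMM-scaled counts, and *mtmr5*-KO replicates 1 to 4 at 1129, 1055, 1383 and 1283. The groups did not overlap. The mean rose from 673.5 ± 86.3 to 1212 ± 148 (SD, 4 libraries per genotype). The log2 fold change was 0.85 with a standard error (SE) of 0.15, and turned to -0.13 when counts were scaled by library totals. In raw counts, *chga* ranged from 930 to 977 for WT and from 617 to 737 for *mtmr5*-KO, a smaller drop than that of *scg2b*, which went from 2997 to 4131 down to 487 to 1043.

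*scg3*, secretogranin III, which binds chromogranin A and cholesterol-rich vesicle membrane in mammals, was not called. It had 4097, 2958, 2963 and 2666 TMM-scaled counts in WT and 2872, 2324, 1860 and 1462 in *mtmr5*-KO. *mtmr5*-KO replicate 1 lay within the WT range, and the other 3 lay below it. The log2 fold change was -0.57 (standard error 0.20). The call depended on the setting. It was called lower under 8 of 19 other settings. Among them were DESeq2, at -0.58, the fit without *mtmr5*-KO replicate 1, at -0.77, and the fit with replicate number as a block, at -0.60. Within each replicate number, the *mtmr5*-KO value lay below the WT value. The labels do not say that a number marks a shared breeding pair.

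**Figure D1:**
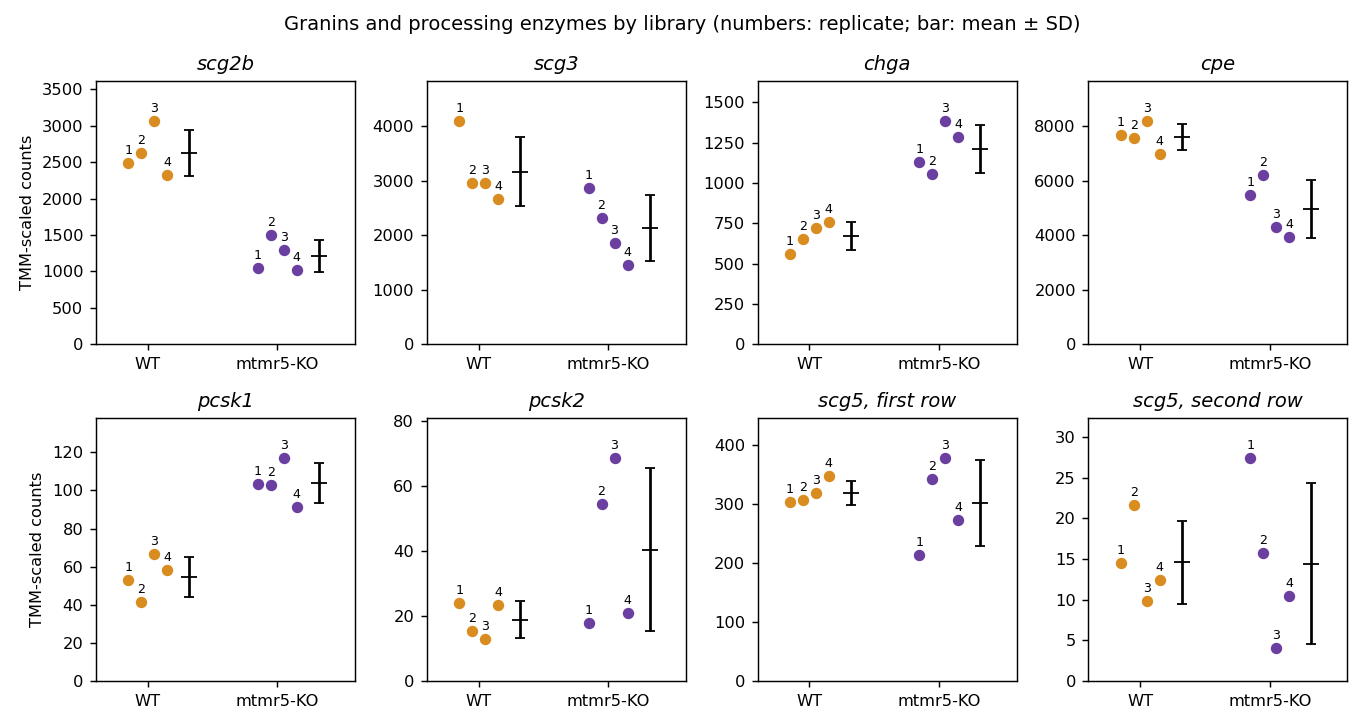
TMM-scaled counts (y axis, from 0) of the 8 rows in each of the 4 WT (orange) and 4 *mtmr5*-KO (purple) libraries, with replicate numbers beside the points and the mean ± SD as a black bar. On this scale *scg2b* and *cpe* lay lower and *chga* and *pcsk1* higher in every *mtmr5*-KO library than in any WT library (*chga* and *pcsk1* turned slightly negative under library totals, at -0.13 and -0.04), and the other 4 rows overlapped.

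Of the processing enzymes, *cpe*, carboxypeptidase E, had the highest counts. It had 7660, 7573, 8174 and 6977 TMM-scaled counts in WT and 5453, 6217, 4287 and 3918 in *mtmr5*-KO. Replicates 3 and 4 of *mtmr5*-KO were the lowest of all libraries. The mean fell from 7596 ± 491 to 4969 ± 1058 (SD, 4 libraries per genotype), a log2 fold change of -0.61 ± 0.17 (SE). The call was lost without WT replicate 3, at -0.57, and without *mtmr5*-KO replicates 3 and 4 together, at -0.41.

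*pcsk1*, the prohormone convertase that acts early in the maturing vesicle, had few counts. It had 88, 59, 88 and 75 raw counts in WT and 64, 72, 58 and 44 in *mtmr5*-KO libraries of lower depth. On the TMM scale these became 53.1, 41.2, 66.4 and 58.2 against 103.2, 103.0, 117.1 and 91.5, and the groups did not overlap. The log2 fold change was 0.92 (standard error 0.27), but -0.04 when scaled by library totals. The call was lost without WT replicate 1 (0.91), WT replicate 2 (0.81) or *mtmr5*-KO replicate 3 (0.84), and without *mtmr5*-KO replicates 3 and 4 together (0.88).

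*pcsk2*, the convertase that completes the processing of many neuropeptides, had 10 to 40 raw counts in any library. Its TMM-scaled counts were 24.1, 15.4, 12.8 and 23.3 in WT and 17.7, 54.4, 68.7 and 20.8 in *mtmr5*-KO. Replicates 2 and 3 of *mtmr5*-KO were high and replicates 1 and 4 lay within the WT range. The log2 fold change was 1.09 with a standard error of 0.51, the largest positive value of the 8 rows, and it was not called.

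*scg5* encodes the neuroendocrine protein 7B2, a chaperone that *pcsk2* needs to mature. Its first row had 302.2, 306.4, 317.8 and 347.4 TMM-scaled counts in WT and 212.9, 342.0, 377.6 and 272.5 in *mtmr5*-KO. The WT libraries lay within the range of the *mtmr5*-KO libraries, and the log2 fold change was -0.08 (standard error 0.19). The second row had 13 to 31 raw counts in WT and 2 to 17 in *mtmr5*-KO, and its log2 fold change was 0.00 ± 0.62 (SE). Neither row was called.

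**Figure D2:**
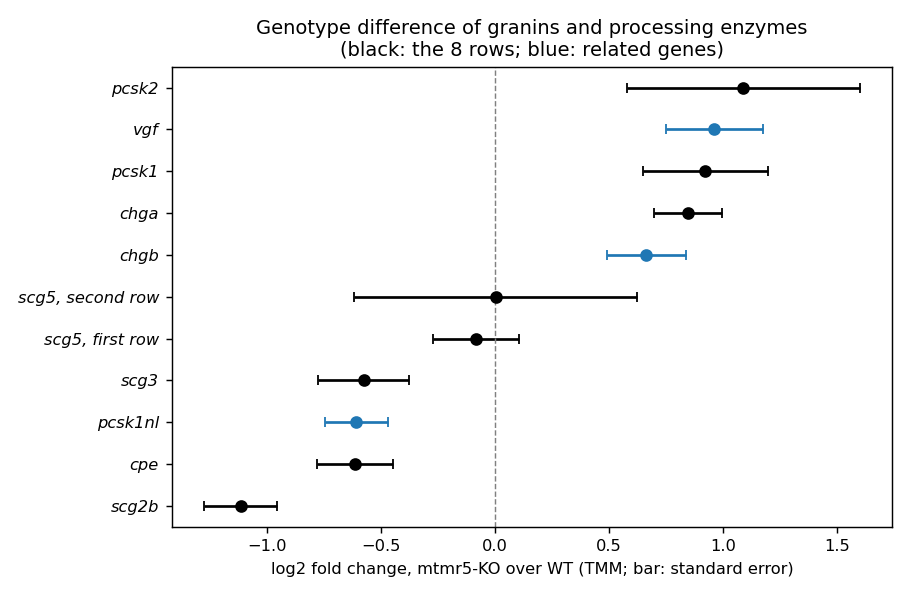
Log2 fold change of *mtmr5*-KO over WT on the TMM scale (x axis) with its standard error for the 8 rows (black) and 3 related genes (blue). The values run from -1.11 for *scg2b* to 1.09 for *pcsk2*, and those of *chga*, *pcsk1*, *chgb* and *vgf*, positive here, were -0.13, -0.04, -0.28 and -0.04 under library totals.

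On the TMM scale, the related granins not among the 8 genes also showed both signs. They too were chosen with results of these libraries known, so that their values are a description. *chgb*, chromogranin B, had 1160, 1325, 1537 and 1579 TMM-scaled counts in WT and 1795, 2676, 2639 and 1764 in *mtmr5*-KO. It rose by 0.66 ± 0.17 on the log2 scale (SE, adjusted p = 0.0126, edgeR), and stood at -0.28 when scaled by library totals. *vgf*, a granin-like precursor that is induced by nerve growth factor in rat cells, rose from 1490 ± 361 to 2905 ± 842 (SD, 4 libraries per genotype). Its log2 fold change was 0.96 ± 0.21 (SE, adjusted p = 0.00437, edgeR), or -0.04 with library totals. Without *mtmr5*-KO replicates 3 and 4 it was 0.52 with an adjusted p = 0.103 (edgeR). *pcsk1nl*, which encodes proSAAS, an inhibitor of the convertase made from *pcsk1*, fell from 2387 ± 272 to 1567 ± 121 (SD, 4 libraries per genotype). Its log2 fold change was -0.61 ± 0.14 (SE, adjusted p = 0.00559, edgeR), or -1.54 with library totals. On the TMM scale the genotypes did not overlap.

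The counts of these genes relative to each other within a library do not depend on how the libraries are scaled. *scg2b*, as the row with the lowest fold change, was taken as the common denominator after its values were seen, so that these ratios are a description. *chga* had 0.225, 0.249, 0.235 and 0.326 counts per count of *scg2b* in WT and 1.07, 0.707, 1.07 and 1.27 in *mtmr5*-KO. The mean ratio was 3.97-fold higher in *mtmr5*-KO, without overlap between the genotypes. With this denominator, genes called lower themselves also rose without overlap, *cpe* from 2.91 to 4.13 and *pcsk1nl* from 0.915 to 1.32 (means). How many of all tested genes would show such a ratio was not computed. The ratio of *chgb* to *scg2b* went from 0.538 ± 0.0962 to 1.82 ± 0.150 and that of *vgf* to *scg2b* from 0.572 ± 0.154 to 2.48 ± 0.892 (SD, 4 libraries per genotype). *pcsk1* relative to *cpe* went from 0.00721 ± 0.00133 to 0.0215 ± 0.00477 (SD, 4 libraries per genotype). *pcsk1nl* relative to *pcsk1* went from 44.9 ± 10.7 to 15.2 ± 2.01 (SD, 4 libraries per genotype). Neither ratio overlapped between the genotypes. On the TMM scale, the genes of each pair had already separated in opposite directions, as had *chga*, *chgb* and *vgf* from *scg2b*. The lack of overlap in these ratios follows from that and is no further support. By contrast, *cpe* relative to *scg3* had mean ratios of 2.45 ± 0.397 and 2.39 ± 0.372 (SD, 4 libraries per genotype) with overlapping libraries.

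**Figure D3:**
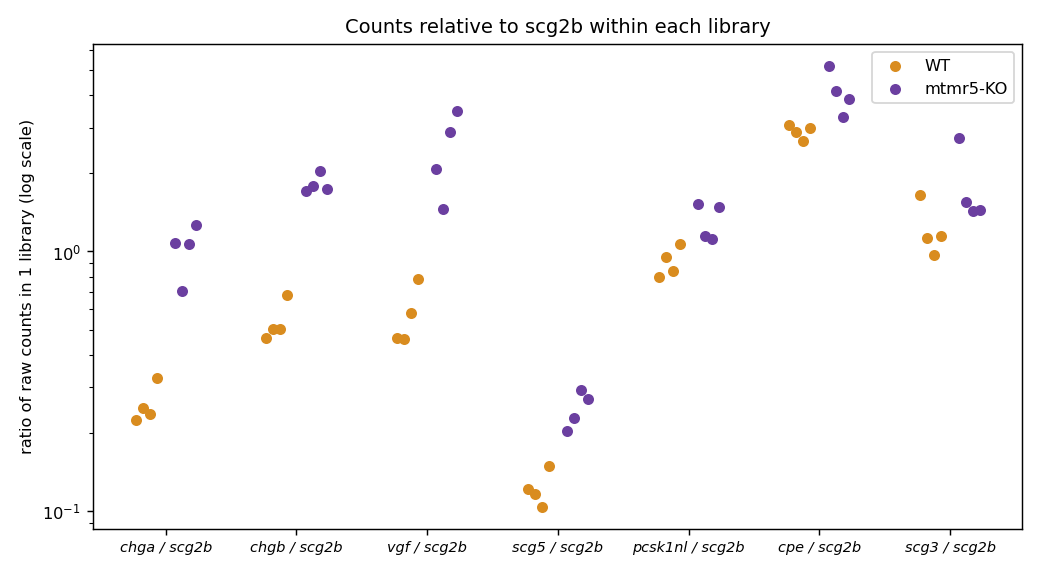
Raw counts of 7 genes divided by those of *scg2b* in the same library (y axis, log scale), for the 4 WT (orange) and 4 *mtmr5*-KO (purple) libraries. The ratios of *chga*, *chgb*, *vgf*, *scg5*, *pcsk1nl* and *cpe* to *scg2b* did not overlap between genotypes, although *pcsk1nl* and *cpe* were called lower themselves. For *chga*, *chgb* and *vgf* this follows from their separation opposite to *scg2b* on the TMM scale. The ratio of *scg3* overlapped, with 1 WT library at 1.64 above the lowest *mtmr5*-KO library at 1.44.

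As shares of the summed counts of the 8 rows, *cpe* held 52.5% ± 1.43 of WT and 49.5% ± 3.31 of *mtmr5*-KO counts (SD, 4 libraries per genotype) and *scg3* 21.8% ± 3.46 and 21.1% ± 3.66, with overlapping libraries for both. *scg2b* went from 18.1% ± 1.51 to 12.2% ± 1.77 and *chga* from 4.69% ± 0.845 to 12.5% ± 3.30, with no overlap for either. The summed TMM-scaled counts of *scg2b*, *scg3* and *chga* ranged over 5747 to 7150 for WT and 3758 to 5053 for *mtmr5*-KO. Those of the processing rows ranged over 7418 to 8581 for WT and 4314 to 6732 for *mtmr5*-KO. Neither sum overlapped between the genotypes. *cpe* was the largest part of the second sum, with means of 7596 in WT and 4969 in *mtmr5*-KO. Of its other rows, *pcsk1* was called higher and the rest were not called. In the first sum, *scg3* overlapped by itself and *chga* was called higher. The sums of the related *chgb*, *vgf* and *pcsk1nl* overlapped, at 4297 to 5896 for WT and 5591 to 7812 for *mtmr5*-KO. How often sums of other genes separate was not computed. Shares of counts carry the length of each transcript, so that they do not rank the genes by transcript number, and levels were not compared between genes.

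The rows also differed in how alike their profiles over the 8 libraries were. Likeness was taken as the root mean square difference of the log2 values after the WT mean of each gene was set to 0. The closest pairs were *chga* with *pcsk1* at 0.21 and *scg3* with *cpe* at 0.21, and the farthest was *scg2b* with *pcsk2* at 1.53. Against 9611 other genes that bear a symbol and average 100 or more TMM-scaled counts (9612 for the rows of fewer counts), the profiles nearest to *scg2b* were those of *ccdc136a*, *ppp1r15a* and *mbip*, at 0.16, 0.16 and 0.17. Those nearest to *chga* were *mmel1*, *mycbp2* and *nucks1b*, at 0.06, 0.07 and 0.07. For *cpe* they were *cd99l2*, *eepd1* and *zbtb2b* at 0.06, 0.07 and 0.08, and for *scg3* they were *stxbp1b*, *gpr146* and *tpi1b* at 0.09, 0.10 and 0.11. *pcsk1* lay nearest to *tnr*, *aebp1b* and *gfra1a*, at 0.12, 0.12 and 0.15, and the first *scg5* row to *foxp1a*, *aar2* and *znf576.2*, at 0.11 each. *pcsk2* had more distant neighbours, the nearest being *APC2* at 0.31. This row had only 10 to 40 raw counts per library, and the SD of its log2 values was 0.42 in WT and 0.95 in *mtmr5*-KO. The part of its few counts in that distance was not tested. These values describe 8 libraries that share their genotype groups and scaling. Within a genotype, the SD of the log2 values was 0.17 in WT and 0.26 in *mtmr5*-KO for *scg2b*. The other rows ran from 0.09 to 0.45 in WT and from 0.14 to 1.05 in *mtmr5*-KO. The medians over all tested genes, which include rows of few counts, were 0.29 and 0.44.

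The scaling set the sign of part of these differences. Scaled by library totals, the median log2 fold change over all tested genes moved from -0.02 to -0.98, and all 8 rows moved down with it. Relative to that median, *scg2b* stood at -1.09, *cpe* at -0.56, *chga* at 0.85 and *pcsk1* at 0.93. On the TMM scale, relative to its own median, the values were close, at -1.09, -0.59, 0.87 and 0.94. A change of scale shifts all genes of a library alike, so that this closeness follows from the method and is no support. With library totals as they are, *scg2b*, *scg3*, *cpe* and the first *scg5* row were called lower and none of the 8 rows was called higher.

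**Figure D4:**
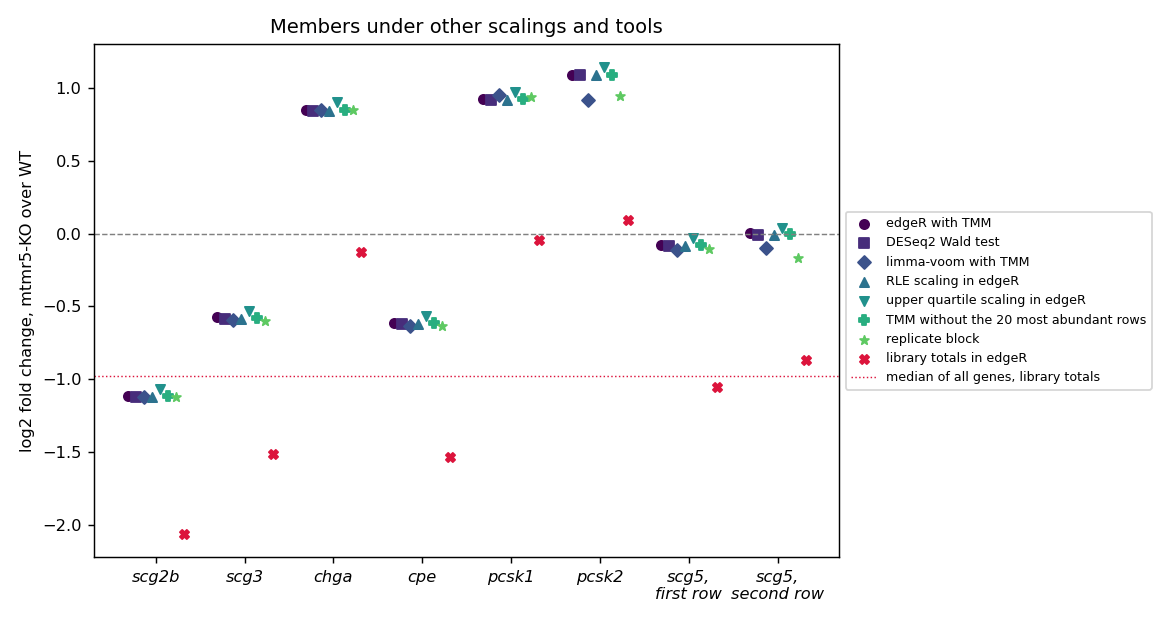
Log2 fold change of *mtmr5*-KO over WT (y axis) of the 8 rows under 7 scalings, tools and designs and with library totals (red crosses). The red dotted line is the median of all tested genes with library totals, -0.98, where *chga* was at -0.13 and *pcsk1* at -0.04 against 0.85 and 0.92 with TMM.

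Of 104 other genes of dense-core vesicles and their cargo, 96 had a row and 76 were tested, of which the edgeR fit called 9 higher and 11 lower. That is 11.8% and 14.5%, beside 13.5% and 7.51% of all tested genes, and the median log2 fold change was -0.16, beside -0.02. The summed TMM-scaled counts of the 96 rows overlapped, at 29336 to 36097 for WT and 30737 to 37214 for *mtmr5*-KO. The list was chosen with results of these libraries known. Of 6 rows for membrane and loading proteins of the vesicle, 4 were tested and 2 were called lower. *ptprn2*, the receptor-type phosphatase homolog phogrin of the vesicle membrane, fell from 2254 ± 145 to 1250 ± 159 TMM-scaled counts (SD, 4 libraries per genotype), which on the log2 scale is -0.85 ± 0.14 (SE, adjusted p = 0.000406, edgeR). *ptprna*, a homolog of the islet antigen IA-2, had a log2 fold change of -0.60 (adjusted p = 0.0162, edgeR). The call for *ptprna* was lost without WT replicate 3 or 4, at an adjusted p = 0.0541 and 0.0545. The other 2 tested rows, *ptprnb*, its paralog, at -0.04 and *slc18a2*, a vesicular monoamine transporter, at 0.79, were not called.

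Other enzymes of peptide maturation showed both signs. *PAM*, named by its human symbol and the enzyme that amidates peptides, fell from 1699 ± 165 to 1156 ± 144 TMM-scaled counts (SD, 4 libraries per genotype), which on the log2 scale is -0.55 ± 0.14 (SE, adjusted p = 0.0118, edgeR). *mbtps1*, the site-1 protease of the Golgi, fell by 0.69 on the log2 scale (adjusted p = 0.00335, edgeR). *furinb*, a furin of the constitutive pathway, rose by 0.66 (adjusted p = 0.00864, edgeR) but was at -0.29 with library totals, and its paralog *furina* was at -0.58 and not called. *pcsk7* had a log2 fold change of -0.67 (adjusted p = 0.0367, edgeR) with overlapping genotypes. Its call was lost without WT replicate 1, 2 or 3 or without *mtmr5*-KO replicate 1, 3 or 4, at adjusted p = 0.0612, 0.128, 0.0827, 0.0685, 0.0532 and 0.0858.

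For vesicle formation, the row ENSDARG00000042608, which the gene name table pairs with *ICA1*, a BAR domain protein of vesicle maturation, rose from 105.5 ± 21.7 to 440.3 ± 138 TMM-scaled counts (SD, 4 libraries per genotype). Its log2 fold change was 2.06 ± 0.24 (SE, adjusted p = 1.28e-05, edgeR), and with library totals it was 1.02. *hid1a*, a homolog of a factor of vesicle formation, rose by 0.94 (adjusted p = 0.00414, edgeR), or -0.03 with library totals. *arfip2a*, an arfaptin of the trans-Golgi network, had a log2 fold change of -0.59 (adjusted p = 0.0200, edgeR), and its call was lost without WT replicate 2 or 3, at an adjusted p = 0.0587 and 0.0585. For release, *syt7b*, a calcium sensor of vesicle fusion, rose from 521.2 ± 62.5 to 1399 ± 290 (SD, 4 libraries per genotype), which on the log2 scale is 1.42 ± 0.17 (SE, adjusted p = 1.68e-05, edgeR). With library totals *syt7b* was at 0.42 and no longer called (adjusted p = 0.0826, edgeR). *baiap3*, a Munc13 relative, was at 1.33 (adjusted p = 0.0261, edgeR), a call that was lost without WT replicate 1, 2 or 3, and without *mtmr5*-KO replicate 4, at adjusted p = 0.0678, 0.0691, 0.0559 and 0.112. With library totals *baiap3* was at 0.35 and not called (adjusted p = 0.479, edgeR), and it had only 26 to 57 raw counts per library. The priming factors of dense-core vesicles, *cadpsa*, *cadpsb* and *cadps2*, were at -0.37, 0.03 and -0.01, and none was called.

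**Figure D5:**
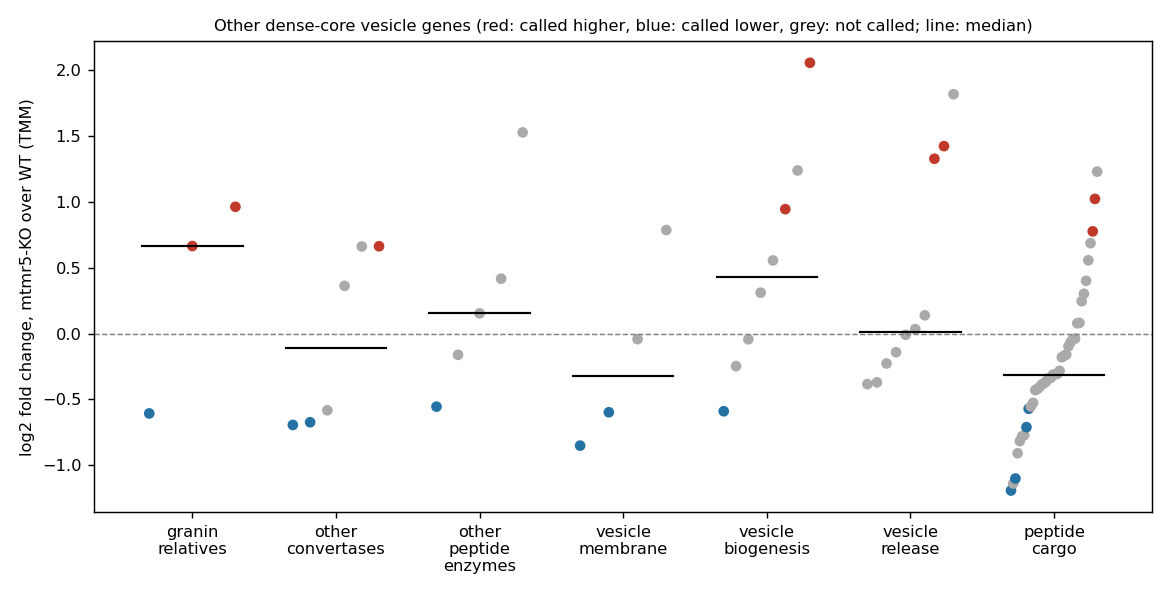
Log2 fold change of *mtmr5*-KO over WT on the TMM scale (y axis) of 76 tested genes in 7 groups, red where called higher, blue where called lower and grey where not called, with the group median as a line. Calls of both signs appear in 4 of the 7 groups, and of the higher ones *chgb*, *vgf*, *furinb*, *hid1a* and *oxt* turned negative with library totals.

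Of the neuropeptide and hormone precursors, 40 of 52 rows were tested, with 2 called higher and 4 lower. That is 5% and 10%, beside 13.5% and 7.51% of all tested genes. The median log2 fold change of the precursors was -0.31, and 30 of the 40 were negative, beside 51.1% of all tested genes. The summed TMM-scaled counts of the 52 rows overlapped, at 7687.6 to 11347.8 for WT and 8913.6 to 13144.5 for *mtmr5*-KO. *adcyap1b* and *bdnf* were the largest parts of these sums. *tac1*, the precursor of substance P, fell from 270.3 ± 19.9 to 118.4 ± 27.6 TMM-scaled counts (SD, 4 libraries per genotype), which on the log2 scale is -1.19 ± 0.21 (SE, adjusted p = 0.000686, edgeR). *tac3b*, a neurokinin precursor, was at -1.10 (adjusted p = 0.0223, edgeR, and 0.0899 without WT replicate 3). *trh*, the thyrotropin-releasing hormone precursor, was at -0.71 (adjusted p = 0.0180, edgeR). *sst1.1*, a somatostatin precursor, was at -0.57 (adjusted p = 0.0423, edgeR), a call lost without WT replicate 2, 3 or 4, and without *mtmr5*-KO replicate 1, at adjusted p = 0.0873, 0.143, 0.100 and 0.0676. *bdnf*, a neurotrophin stored in these vesicles, rose by 1.02 with overlapping genotypes (adjusted p = 0.00564, edgeR), and was at 0.03 with library totals. Without *mtmr5*-KO replicates 3 and 4 together, *bdnf* was at 0.61 and *trh* at -0.59, and neither was called (adjusted p = 0.112 and 0.108, edgeR). *oxt*, the oxytocin precursor, rose by 0.78 (adjusted p = 0.0351, edgeR), stood at -0.17 with library totals and lost its call without WT replicate 1 or 3, and without *mtmr5*-KO replicate 2 or 4, at adjusted p = 0.0903, 0.114, 0.0690 and 0.127. *npy* and *adcyap1b*, at 0.08 and 0.40, were not called.

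Markers of the cells that use these vesicles were read beside the members. Of 20 tested neuronal markers, 10 were called higher and 4 lower, with a median log2 fold change of 0.54. That is 50% and 20%, beside 13.5% and 7.51% of all tested genes. Their summed TMM-scaled counts ranged from 128686 to 165277 for WT and from 219015 to 266992 for *mtmr5*-KO. *elavl3*, a pan-neuronal RNA-binding protein, was called higher at 1.23, while *sypa*, a synaptophysin of synaptic vesicles, was called lower at -0.75. In CPM of the library total, without the TMM factor, the neuronal sums overlapped, at 8751 to 10306 for WT and 6462 to 9823 for *mtmr5*-KO. Of 11 pituitary markers, 4 were tested and none was called, and the summed TMM-scaled counts ranged from 85.3 to 191.8 for WT and from 95.9 to 220.1 for *mtmr5*-KO. The pituitary hormone genes *pomca*, *gh1*, *prl*, *tshba*, *cga*, *smtla* and *smtlb* had at most 19 raw counts in any library, and *prl* was at 0 in all *mtmr5*-KO libraries. Of 7 islet markers, 4 were tested and none was called, with sums of 100.1 to 219.4 and 154.8 to 176.8. In CPM of the library total, the islet sums were lower in every *mtmr5*-KO library (7.41 to 13.0 against 4.23 to 6.70), and the pituitary sums overlapped (5.04 to 14.2 against 3.35 to 5.69). With library totals the median log2 fold change over all tested genes was itself -0.98, so that a lower sum there is not particular to islet markers. The insulin gene *ins* had 5 to 31 raw counts in WT and 0 to 16 in *mtmr5*-KO.

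Markers of tissues outside the brain moved with genotype too. They are given beside 13.5% of all tested genes called higher and 7.51% called lower. Of 9 tested liver markers, 8 were called higher, with summed TMM-scaled counts of 520.0 to 822.0 for WT and 1358 to 4623 for *mtmr5*-KO. Of 9 tested lens markers, 8 were called lower, with sums of 63551 to 363080 and 1351 to 14467. Of 7 muscle markers, 5 were higher and 1 lower, with sums of 3275 to 3913 and 5709 to 7768, and of 9 exocrine pancreas markers 6 were higher, with sums of 230.2 to 334.2 and 649.6 to 1337. In CPM of the library total, liver (32.7 to 53.1 against 55.3 to 138.0) and exocrine pancreas (14.9 to 20.9 against 26.5 to 37.1) were still higher in every *mtmr5*-KO library and lens (4574 to 22854 against 34.9 to 589.3) lower, while muscle overlapped (193.4 to 275.6 against 172.7 to 232.6). No marker among these lists was at 0 in all libraries. The part of these tissues in the differences of the granins and processing enzymes was not tested.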

How the data were processed

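Per the methods of the study and the submitters' processing notes, Trim Galore 0.6.7 was used to trim the paired-end reads, STAR 2.7.11a to align them to GRCz11, and HTSeq 2.0.5 to assign uniquely mapped reads to genes. No source used here states the strand setting, so reads of overlapping antisense genes may be included. The authors deposited these counts, unnormalized whole numbers, for 32520 rows. They also deposited normalized counts, a signal that equals the count divided by a size factor of the library (checked on the files), for 19412 rows, which served 1 alternative. Libraries of 16104181 to 22761120 counts were used, 4 per genotype, with groups from the sample labels. No replicate pair agreed within sampling noise (chi-square per degree of freedom 22.0 to 110.7 over 12 pairs).

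Rows that reached 10 counts in 3 or more libraries were tested with edgeR 4.0.16 (TMM, glmQLFit with robust=TRUE, glmQLFTest, Benjamini-Hochberg adjustment over all 19412) in R 4.3.3. The model held genotype alone. Genes were called at an adjusted p under 0.05. The standard error is the log2 fold change over the square root of F. Alternatives used DESeq2 1.42.0, limma 3.58.1, other scalings and filters, the replicate block and libraries left out. The fits were tested on simulated data. Figures were drawn with matplotlib 3.10.9.

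The members and lists were chosen with earlier results of these data known. Genes named are all members, the targeted gene, of each other vesicle list up to the 6 called genes with the smallest p, and for each member up to 3 genes with the nearest profile (those of the second *scg5* row are not reported here); uncalled paralogs and single markers were added after their values were seen. Sequences were not used here.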

Additional observations from a re-analysis of the deposited data

How the results depend on the processing

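Over 19 other settings, *scg2b* stayed lower and called in each, with log2 fold changes from -2.06 to -1.03, and *chga* stayed higher and called in 18. With library totals, *chga* was at -0.13, *pcsk1* at -0.044 and the second *scg5* row at -0.87, the members called were 0 higher and 4 lower, the other vesicle genes 1 and 46, and all tested genes 719 and 10819, in place of 2618 and 1457 with TMM. Thus 6.23% of calls were higher with library totals and 64.2% with TMM. Without *mtmr5*-KO replicates 3 and 4 together, these counts were 1 and 1, 5 and 7, and 1576 and 795. At an adjusted p under 0.01 with an absolute log2 fold change over 1, they were 0 and 1, 3 and 1, and 1384 and 209. Without a filter beyond 1 count, 1 member was called higher.

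Leaving out each library in turn gave 1 to 2 members higher and 1 to 3 lower, 7 to 10 and 6 to 12 other vesicle genes, and 2008 to 2769 and 741 to 1816 of all tested genes. The lowest count of lower genes came without WT replicate 2, and it was 836 without WT replicate 3. The first *scg5* row turned to 0.045 without *mtmr5*-KO replicate 1. The second *scg5* row, at 0.00, was negative with DESeq2 (-0.0097), limma-voom (-0.10), limma on the normalized counts (-0.23) and RLE (-0.011). It was also negative without the 20 most abundant rows (-0.0055), without a filter (-0.042) and with the replicate block (-0.17). It ranged from -0.51 to 0.27 with each library left out in turn, and was 0.51 without *mtmr5*-KO replicates 3 and 4 together. *scg3* was called lower under 8 of 19 settings.

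The labels do not say that a replicate number marks a shared breeding pair. Deviations from the group means correlated at 0.08 to 0.15 between libraries of the same number and at -0.10 to 0.06 otherwise, and each of the 8 libraries correlated best with its own number. With the replicate block, 2 members were called higher and 3 lower (*scg3* added, at -0.60), and of all tested genes 2264 were called lower. The share of *scg2b* in *scg2a* plus *scg2b* was not run, since *scg2a* is not analysed here. *pcsk1*, *pcsk2* and the second *scg5* row had at most 88, 40 and 31 raw counts in any library, and the part of depth in their spread was not tested.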
